A study of Mus musculus with 8 samples.

Results

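Cell cycle and proliferation genes were examined in islet RNA from 4 control and 4 β-tetO-NICD mice. The members are 50 gene symbols fixed by name, and all 50 were among the 32531 symbols of the deposited count table. They comprise 21 genes of G1/S entry and S phase, 27 genes of G2 and mitosis, and 2 genes, Ezh2 and Stmn1, that belong to no single phase. Control mice were RIP-Cre+, Rosa26-rtTA+ and tetO_NICD-, and β-tetO-NICD mice were RIP-Cre+, Rosa26-rtTA+ and tetO_NICD+. Both groups had a mixed C57BL/6J, 129X1/SvJ and BALB/c background and had received doxycycline (Dox) in drinking water for 8 weeks. The rat insulin promoter drives Cre in β cells, Cre permits rtTA to be made there, and Dox then turns on the tetO transgene, which encodes NICD, the intracellular domain by which an activated Notch1 receptor signals. Dox, Cre and rtTA were thus shared by both groups, whose labels differ in the tetO-NICD transgene alone. RNA came from whole isolated islets, which also hold α, δ, endothelial, stromal and immune cells, so a level below is a sum over cell types. The labels give no age or sex for these mice, and the methods name males for gene expression work.

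Cells enter S phase when cyclin D and cyclin E kinases phosphorylate RB and so free E2F factors, which switch on the genes that license and copy DNA. In late S phase and G2, the MuvB complex joins B-MYB and FOXM1 and switches on the cyclin B, kinetochore and spindle genes of mitosis. β Cells of adult mice divide rarely, and the transcripts of dividing cells are accordingly scarce in islet RNA.

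The 8 libraries held between 21701223 and 26413146 counts. Levels are given as normalized CPM, that is, counts scaled to 1000000 per library after TMM, a correction for differences in library composition. Of all symbols, 15082 reached 10 counts in 4 or more libraries. These were compared by the quasi-likelihood test of edgeR, with Benjamini-Hochberg adjustment across all of them. Notch1, which the transgene encodes in part, was between 41.6 and 65.0 CPM in controls and between 574 and 1322 CPM in β-tetO-NICD islets (log2 fold change 4.18 ± 0.30 SE, adjusted p = 0.000102), so the transgene RNA matched the labels. The islet hormones were abundant in every library, with Ins2 between 46660 and 123504 CPM and Gcg between 11317 and 67055 CPM. A pair of further divisions among the libraries bear on the results below. In controls 1, 2 and 4 and β-tetO-NICD library 1, genes with long transcripts stood higher relative to the mean of all libraries, whereas in control 3 and β-tetO-NICD libraries 2, 4 and 5 genes with short transcripts did. The Y-linked gene Eif2s3y had 1300 to 1527 counts in 3 libraries (controls 2 and 4, β-tetO-NICD library 5) and no more than 1 count in any of the remaining 5. Although the methods name males, RNA of this Y-linked gene was thus nearly absent from 5 of the 8 libraries. The reason was not tested.

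Of the 50 members, 49 were tested, and a single member, E2f1, passed the threshold of an adjusted p under 0.05, a share of 2.04% against 6.76% of all genes tested. It was lower in β-tetO-NICD islets, as were 2.57% of all genes. The untested member was Cdc6, a loader of the replicative helicase, which had between 5 and 16 counts per library. At an unadjusted p under 0.05, 10 members (20.4%) passed against 31.6% of all genes, 7 of them with higher and 3 with lower values in β-tetO-NICD islets. Separation was complete, with all 4 β-tetO-NICD libraries higher, for 4 members (8.16%, against 8.22% of all genes), and with all 4 lower for 2 members (4.08%, against 7.92%). Each of these shares was near or below that of the whole table. The log2 fold change was positive for 33 members and negative for 16, with a median of 0.14, beside a median of 0.00071 over all genes tested.

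**Figure D1:**
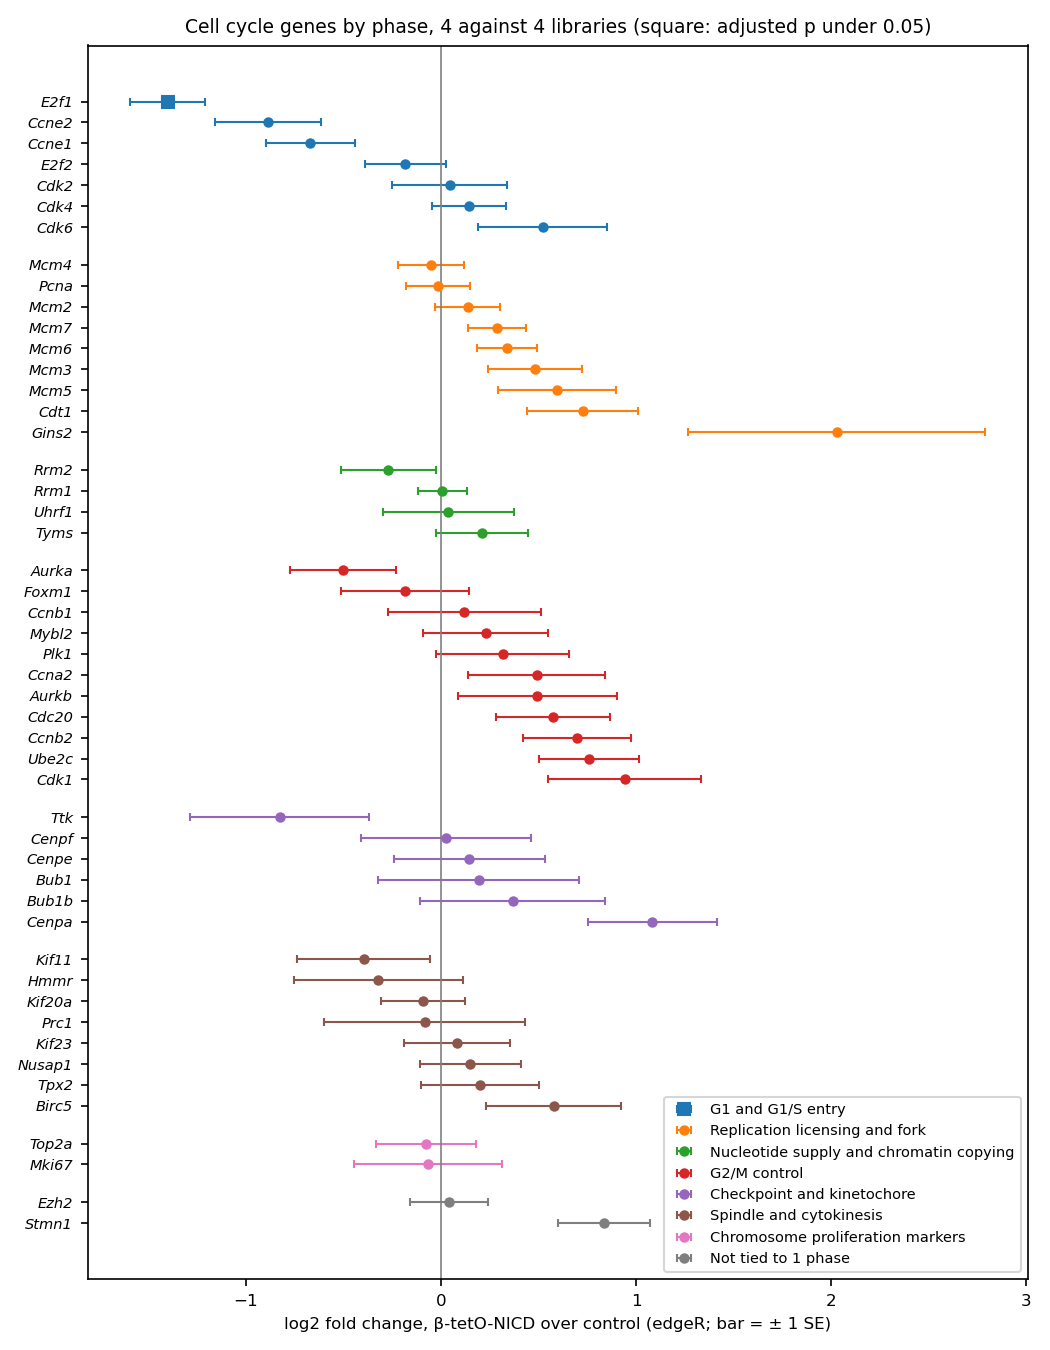
Log2 fold change of each of the 49 tested members, β-tetO-NICD over control, on the horizontal axis, with bars of ± 1 SE from the edgeR fit and colours for the phase group. E2f1, the square at the far left, is the member past the threshold, at -1.40, and Gins2, at the far right at 2.03, has the widest bar.

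E2f1, an activating transcription factor of the G1/S transition, fell in β-tetO-NICD islets. It lies on chromosome 2 of GRCm38 (chr2:154559407-154569892, minus strand). Control libraries 1 to 4 held 15.9, 15.7, 15.2 and 14.4 CPM, and β-tetO-NICD libraries 1, 2, 4 and 5 held 4.51, 4.85, 6.41 and 7.41 CPM. The controls lay close together, and every β-tetO-NICD library was below all of them. The log2 fold change was -1.40 ± 0.19 (SE), 2.64-fold lower, with an adjusted p of 0.00323. In bulk RNA, fewer cells of a type that express a gene and less RNA of it per cell cannot be told apart. The gene passed without each of the 8 libraries in turn (-1.53 to -1.30), and in the 5 libraries without Eif2s3y counts it was at -1.56 (adjusted p = 0.0453). It was at -1.28 within the short-transcript libraries, where control 3 is the only control. Within the long-transcript libraries, where library 1 is the only β-tetO-NICD library, it was at -1.76. A score of leukocyte genes did not overlap between the groups either (3.19 to 3.40 in controls, 3.56 to 3.66 in β-tetO-NICD islets, as mean log2 CPM of 10 tested genes). With that score in the fit, E2f1 was at -1.32 with an adjusted p of 0.613, and 5 genes of the whole table passed. Scores of β and α cell genes, given with Stmn1 below, did not overlap between the groups either. Their part in the E2f1 values was not tested.

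Cyclin E activates CDK2 at the start of S phase, and both cyclin E genes had lower values in β-tetO-NICD islets without passing the threshold in edgeR's test. With DESeq2, Ccne1 (adjusted p = 0.0459) and Ccne2 (0.0191) passed, and with the length offset Ccne1 did (0.0283). Both of these fits also called more genes over the whole table, as given below. With limma-voom neither passed (adjusted p = 0.0825 for Ccne1 and 0.0767 for Ccne2). With a library left out, Ccne1 passed in 0 of 8 fits and Ccne2 in 1 of 8. Ccne2 was at 2.91, 5.03, 5.90 and 5.11 CPM in controls 1 to 4, and at 3.33, 2.40, 2.36 and 2.17 CPM in libraries 1, 2, 4 and 5 of β-tetO-NICD islets. Control 1 lay among the β-tetO-NICD values, and the log2 fold change was -0.89 ± 0.27 (adjusted p = 0.0748). The span of Ccne2, introns included, shares 5622 bases with that of Ints8, a gene on the opposite strand. Ints8 was between 25.9 and 32.4 CPM in controls and between 19.4 and 29.4 CPM in β-tetO-NICD islets. Ccne1, described here because its groups did not overlap, was at 3.23, 3.76, 3.76 and 2.96 CPM in controls and at 1.85, 2.53, 2.39 and 1.81 CPM in β-tetO-NICD libraries. Its log2 fold change was -0.67 ± 0.23 (adjusted p = 0.0945).

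The kinases that G1 cyclins bind had overlapping values. Cdk2 was between 1.98 and 4.38 CPM in controls and between 2.66 and 4.32 CPM in β-tetO-NICD islets (0.04 ± 0.30, adjusted p = 0.928). Cdk4, a partner of D cyclins, was the most abundant member per kilobase of transcript, at 57.9 CPM per kilobase in controls and 64.0 in β-tetO-NICD islets, with a log2 fold change of 0.14 ± 0.19 (adjusted p = 0.61). Cdk6, the other D cyclin kinase, was at 0.175 and 0.252 CPM per kilobase and at a log2 fold change of 0.52 ± 0.33 (adjusted p = 0.286). E2f2, an activating E2F like E2f1, was between 4.79 and 5.56 CPM in controls and between 3.48 and 5.25 CPM in β-tetO-NICD islets (-0.18 ± 0.21, adjusted p = 0.548). Among the 8 E2F genes of the table, 7 were tested and 2 passed (28.6%, against 6.76% of all genes), E2f1 lower and E2f3, which is no member, higher. The call of E2f3 was lost in 16 of 26 alternatives. E2f3 and the other E2F genes are given with the wider cell cycle list below.

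**Figure D2:**
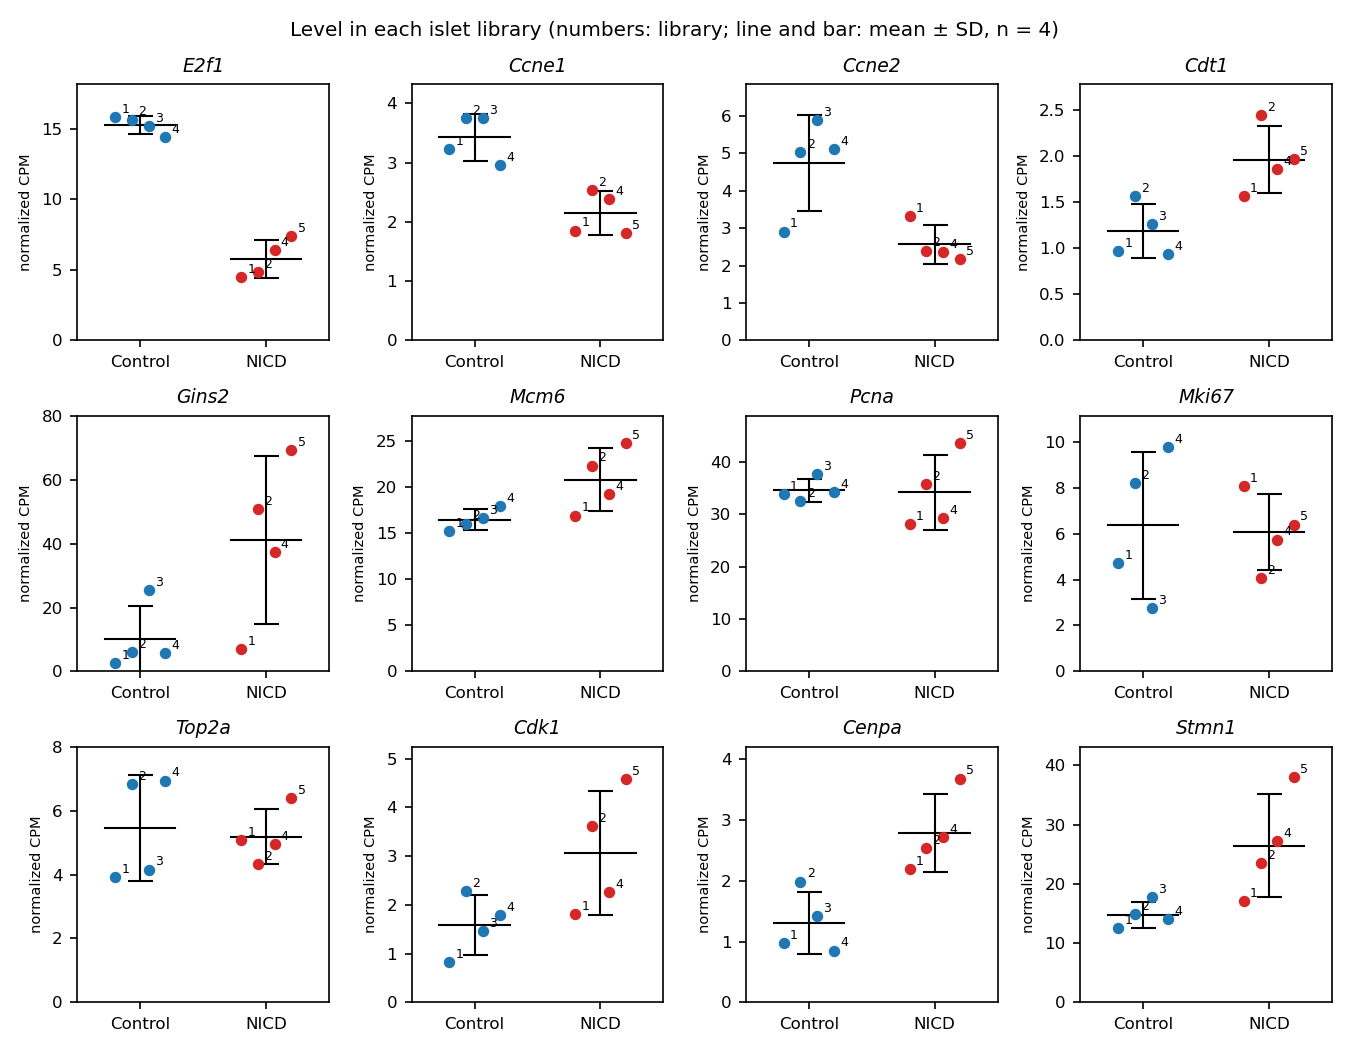
Normalized CPM of 12 members in each library, with controls in blue, β-tetO-NICD (NICD) libraries in red, library numbers beside the points and the mean ± SD (n = 4) in black. The E2f1 values separate by a wide gap (14.4 to 15.9 against 4.51 to 7.41), whereas those of Mki67, Top2a and Pcna overlap.

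No gene of replication licensing and the fork passed the threshold. Of 9 tested members of this group, 7 had a positive log2 fold change, and the median was 0.34. The 6 subunits of the MCM helicase, which unwinds DNA at the fork, had a median of 0.31, from -0.05 for Mcm4 to 0.59 for Mcm5, and their adjusted p was between 0.165 and 0.849. Mcm6, the member of the complex with the smallest p, was between 15.2 and 18.0 CPM in controls and between 16.9 and 24.8 CPM in β-tetO-NICD islets. Summed over the 6 subunits, the level was between 54.8 and 66.7 CPM in controls and between 62.4 and 76.8 CPM in β-tetO-NICD islets, so the ranges overlapped.

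Cdt1, which loads the MCM helicase on origins, was at 0.968, 1.56, 1.27 and 0.934 CPM in controls and at 1.57, 2.45, 1.86 and 1.96 CPM in β-tetO-NICD libraries. The groups did not overlap, although control 2 and β-tetO-NICD library 1 lay side by side, and the log2 fold change was 0.73 ± 0.29 (adjusted p = 0.126). It had between 21 and 56 counts per library. Its span, introns included, shares 5540 bases with that of Gm20388, a predicted gene on the same strand. Pcna, the sliding clamp of DNA polymerase, was at 33.9, 32.6, 37.6 and 34.2 CPM in controls and at 28.1, 35.7, 29.2 and 43.6 CPM in β-tetO-NICD libraries. The β-tetO-NICD values lay on both sides of the controls (-0.02 ± 0.16, adjusted p = 0.953). Corrected for transcript length by an offset, Pcna was at -0.40 with an adjusted p of 0.041.

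Gins2, a subunit of the GINS complex that works with the MCM helicase, had the largest fold change of the members and the largest error. It was at 2.72, 6.12, 25.5 and 5.84 CPM in controls 1 to 4 and at 7.03, 50.8, 37.3 and 69.3 CPM in libraries 1, 2, 4 and 5 of β-tetO-NICD islets. The log2 fold change was 2.03 ± 0.76 (adjusted p = 0.115). The 4 libraries with higher short transcripts, control 3 among them, held at least 25.5 CPM, and the 4 with higher long transcripts at most 7.03 CPM. The ratio of these bounds, 3.63, ranked 2 among 15081 genes. Between the genotypes, the ratio of means was 1.44 within the long-transcript libraries and 2.06 within the short-transcript ones. Without control 3 the log2 fold change was 3.07 (adjusted p = 0.0392), without β-tetO-NICD library 1 it was 2.38 (adjusted p = 0.0198), and with a term for the transcript-length division it was 0.80 (adjusted p = 0.22). The gene lies at chr8:120578633-120589304, and its span, introns included, shares 2758 bases with that of Gse1 on the opposite strand. On that strand the predicted gene Gm20388 spans all of Gins2 (10672 bases), and the same predicted gene overlaps Cdt1. How many exon bases are shared was not determined. For Gm20388 itself the libraries overlapped (log2 fold change 0.31 ± 0.21, adjusted p = 0.323). Gse1 was at 133, 101, 56.0 and 119 CPM in controls and at 127, 33.0, 52.1 and 3.53 CPM in β-tetO-NICD libraries, so it was lowest in the library in which Gins2 was highest. The part of the length division and of the overlapping genes in the Gins2 values was not tested. Complete separation along this division was rarer among the members than over all genes. Cdk4, Gins2 and Stmn1 were higher in all 4 short-transcript libraries than in the others (6.12% of members against 15.5% of all genes). For 0 members were all 4 lower, against 16.4%. A term for the division still changed estimates of other members, with Mki67 at 0.51 with the term and -0.07 without it.

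Genes of nucleotide supply and chromatin copying had similar levels in both groups. The median log2 fold change of the 4 members was 0.02, and none had an unadjusted p under 0.05. Rrm2, the regulated subunit of ribonucleotide reductase, was at 2.40, 3.59, 2.37 and 2.35 CPM in controls and at 2.52, 1.97, 2.19 and 2.22 CPM in β-tetO-NICD libraries (-0.27 ± 0.24, adjusted p = 0.451). Control 2 stood above the other 7 libraries. Tyms, thymidylate synthase, was at 7.93, 7.01, 8.15 and 9.05 CPM in controls and at 7.27, 7.86, 7.94 and 14.2 CPM in β-tetO-NICD libraries (0.21 ± 0.24, adjusted p = 0.549). Rrm1, the catalytic subunit, was the most even member, between 21.8 and 25.9 CPM in all 8 libraries (0.0069 ± 0.12, adjusted p = 0.975). Uhrf1, which guides DNA methylation to new strands, was between 0.553 and 1.14 CPM (0.04 ± 0.34, adjusted p = 0.948).

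The promoters of the phase groups differed in sequence in the way known for them, which is background to their grouping rather than a result on Notch. RefSeq windows of 300 bases on GRCm38.p6 (250 before and 50 after the start) were matched by symbol for 41 members, which had 45 windows. Both strands were searched for E2F letters (TTTCCCGC, TTTGGCGC or TTTCGCGC), for the cell cycle homology region, CHR (TTTGAA or TTTAAA, the element that MuvB contacts), and for the NF-Y element (CCAAT). An E2F match was present in 42.9% of 21 windows of G1/S and S phase members, in 4.35% of 23 windows of G2 and mitosis members and in 1.84% of all 32851 windows. A CHR match was present in 28.6%, 87.0% and 27.6% of these windows, and an NF-Y match in 66.7%, 87.0% and 37.4%. A match of letters is no evidence of binding. The 150 bases before the start are printed for a helicase subunit (Mcm6) and for 3 mitosis members with the highest fold changes of their groups (Cdk1, Ube2c and Cenpa), so that both kinds of promoter can be read. Capitals mark the matches on either strand, and matches that touch run together.
Mcm6, chr1:128359706-128359855, minus strand: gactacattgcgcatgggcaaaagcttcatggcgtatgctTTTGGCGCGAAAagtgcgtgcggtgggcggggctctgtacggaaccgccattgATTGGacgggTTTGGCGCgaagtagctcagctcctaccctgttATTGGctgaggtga
Cdk1, chr10:69352913-69353062, minus strand: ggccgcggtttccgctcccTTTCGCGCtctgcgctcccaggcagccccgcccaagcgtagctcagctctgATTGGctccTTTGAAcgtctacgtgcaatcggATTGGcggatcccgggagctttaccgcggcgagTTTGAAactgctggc
Ube2c, chr2:164769779-164769928, plus strand: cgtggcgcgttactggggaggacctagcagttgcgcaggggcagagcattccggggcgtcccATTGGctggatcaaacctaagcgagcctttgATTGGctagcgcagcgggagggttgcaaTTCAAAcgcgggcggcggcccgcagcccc
Cenpa, chr5:30666736-30666885, plus strand: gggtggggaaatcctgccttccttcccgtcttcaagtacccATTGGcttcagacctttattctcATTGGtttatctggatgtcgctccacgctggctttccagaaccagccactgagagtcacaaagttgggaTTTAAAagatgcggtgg
The Mcm6 stretch has E2F and NF-Y letters, those of Ube2c and Cenpa have NF-Y and CHR letters, and that of Cdk1 has all of them.

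**Figure D3:**
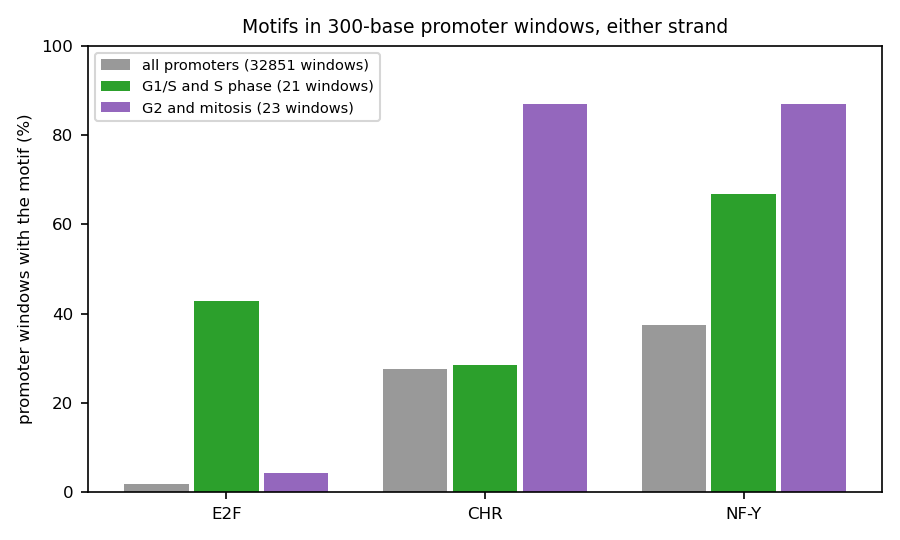
Percentage of 300-base promoter windows with an E2F, CHR or NF-Y match on either strand, for all promoters (grey), members of G1/S and S phase (green) and members of G2 and mitosis (purple). E2F letters stand out in the S phase group at 42.9%, and CHR letters in the mitosis group at 87.0%, against 1.84% and 27.6% of all windows.

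Of the 27 members of G2 and mitosis, all were tested and 0 passed the threshold in edgeR's test, 4 of them having an unadjusted p under 0.05. The same count was 0 with limma-voom and 1, Cenpa, with DESeq2. The log2 fold change was positive for 18 and negative for 9, with a median of 0.15. This median depended on the fit and turned negative with the leukocyte score, as given below. The mitosis members are rare transcripts: 7 of the 27 had a mean under 1 CPM in controls, and Bub1 had as few as 3 counts in a library.

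The G2/M control genes, which set the entry into and exit from mitosis, had the highest median of the phase groups, 0.49 over 11 members, 9 of them positive. Cdk1, the mitotic kinase, was at 0.830, 2.28, 1.46 and 1.79 CPM in controls and at 1.81, 3.62, 2.26 and 4.58 CPM in β-tetO-NICD libraries (0.94 ± 0.39, adjusted p = 0.139). Control 2 lay among the β-tetO-NICD values. Ube2c, a ubiquitin-conjugating enzyme of the anaphase-promoting complex, was at 0.968, 1.52, 1.31 and 1.22 CPM in controls and at 2.28, 1.88, 1.93 and 2.42 CPM in β-tetO-NICD libraries. Its groups did not overlap (0.76 ± 0.26, adjusted p = 0.0933). The span of Ube2c, introns included, shares 1662 bases with that of Tnnc2 on the opposite strand.

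Both B cyclins, the partners of CDK1, were scarce. Ccnb2 was at 0.830, 1.39, 1.03 and 0.893 CPM in controls and at 1.43, 1.79, 1.66 and 1.86 CPM in β-tetO-NICD libraries, a non-overlap by a narrow gap (0.70 ± 0.28, adjusted p = 0.127). Ccnb1 was at 0.784, 1.52, 0.435 and 1.06 CPM in controls and at 0.950, 1.05, 0.830 and 1.31 CPM in β-tetO-NICD libraries. The control values of Ccnb1 enclosed all the others (0.12 ± 0.39, adjusted p = 0.848). The other 7 members of the group overlapped between the genotypes. Their log2 fold changes were 0.57 for Cdc20, the activator of the anaphase-promoting complex, 0.49 for both the cyclin Ccna2 and the kinase Aurkb, 0.32 for the kinase Plk1, 0.23 for Mybl2, which encodes B-MYB, -0.19 for Foxm1 and -0.50 for the kinase Aurka, with adjusted p between 0.201 and 0.71.

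Among 6 genes of the checkpoint and kinetochore, 5 had a positive log2 fold change, and the median was 0.17. Cenpa, the histone H3 variant that marks centromeres, was at 0.968, 1.98, 1.42 and 0.852 CPM in controls and at 2.19, 2.53, 2.72 and 3.68 CPM in β-tetO-NICD libraries. All 4 β-tetO-NICD values were higher, and the log2 fold change was 1.08 ± 0.33 (adjusted p = 0.0727). Ttk, the kinase MPS1 of the spindle checkpoint, was at 0.646, 0.929, 0.277 and 1.30 CPM in controls and at 0.380, 0.393, 0.531 and 0.453 CPM in β-tetO-NICD libraries (-0.83 ± 0.46, adjusted p = 0.232). The controls of Ttk spanned a wider range than the β-tetO-NICD libraries. Bub1, Bub1b, Cenpe and Cenpf lay between 0.03 and 0.37, with adjusted p between 0.601 and 0.973.

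The 8 genes of the spindle and cytokinesis had as many positive as negative values, 4 and 4, and none had an unadjusted p under 0.05. Birc5, or survivin, a subunit of the chromosomal passenger complex, was at 0.784, 0.971, 0.791 and 1.10 CPM in controls and at 0.760, 1.44, 1.20 and 2.07 CPM in β-tetO-NICD libraries (0.58 ± 0.35, adjusted p = 0.264). Kif11, the motor that separates spindle poles, was at 1.25, 1.86, 1.19 and 2.07 CPM in controls and at 1.57, 1.27, 1.33 and 0.655 CPM in β-tetO-NICD libraries (-0.40 ± 0.34, adjusted p = 0.431). In β-tetO-NICD library 5, Birc5 was at its highest and Kif11 at its lowest. Kif20a, Kif23, Nusap1, Tpx2, Prc1 and Hmmr, which bundle and move microtubules, lay between -0.32 and 0.20, with adjusted p between 0.617 and 0.92.

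Mki67 and Top2a, the transcripts most used to mark proliferating cells, did not separate the groups. Mki67, which encodes the Ki-67 protein of the mitotic chromosome surface, was at 4.70, 8.19, 2.77 and 9.78 CPM in controls and at 8.08, 4.06, 5.74 and 6.40 CPM in β-tetO-NICD libraries. Its lowest and its highest value were both in controls, and the log2 fold change was -0.07 ± 0.38 (adjusted p = 0.911). Top2a, the topoisomerase that untangles chromosomes, was at 3.92, 6.84, 4.15 and 6.94 CPM in controls and at 5.08, 4.32, 4.95 and 6.40 CPM in β-tetO-NICD libraries (-0.08 ± 0.26, adjusted p = 0.851). With errors of this size, the data neither show a change of these markers nor show that their levels were equal.

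The mitosis genes varied together among the controls. Summed over the 27 members, the level was 39.8, 65.8, 37.5 and 63.0 CPM in controls 1 to 4 and 59.4, 48.6, 55.4 and 61.8 CPM in libraries 1, 2, 4 and 5 of β-tetO-NICD islets. The β-tetO-NICD libraries lay between the low and the high controls. Controls 1 and 3 were the lowest library for 21 of the 27 members, 10 in control 1 and 11 in control 3. The median SD of log2 CPM of these members was 0.48 in controls and 0.29 in β-tetO-NICD islets, whereas over all genes it was 0.26 and 0.35. The high controls, 2 and 4, were those with Eif2s3y counts, a division seen after the values were known. For 19 of the 27 members (70.4%) both of these controls were above both others, against 20.8% of all genes, and for 0 both were below, against 20.2%. Of 9 lists of cell type markers, 2 divided the controls in the same way and 7 did not. The summed level of 8 fibroblast and stellate genes was 815 and 398 CPM in controls 2 and 4 and 249 and 238 CPM in controls 1 and 3, and that of 4 erythroid genes was 150 and 116 CPM against 51.8 and 61.2 CPM. Among the 7, the sum of 8 endothelial genes was 816 and 649 CPM against 710 and 506 CPM, and that of 12 leukocyte genes was 141 and 182 CPM against 151 and 192 CPM. The part of these cells, or of whatever sets Eif2s3y, in the mitosis genes was not tested.

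**Figure D4:**
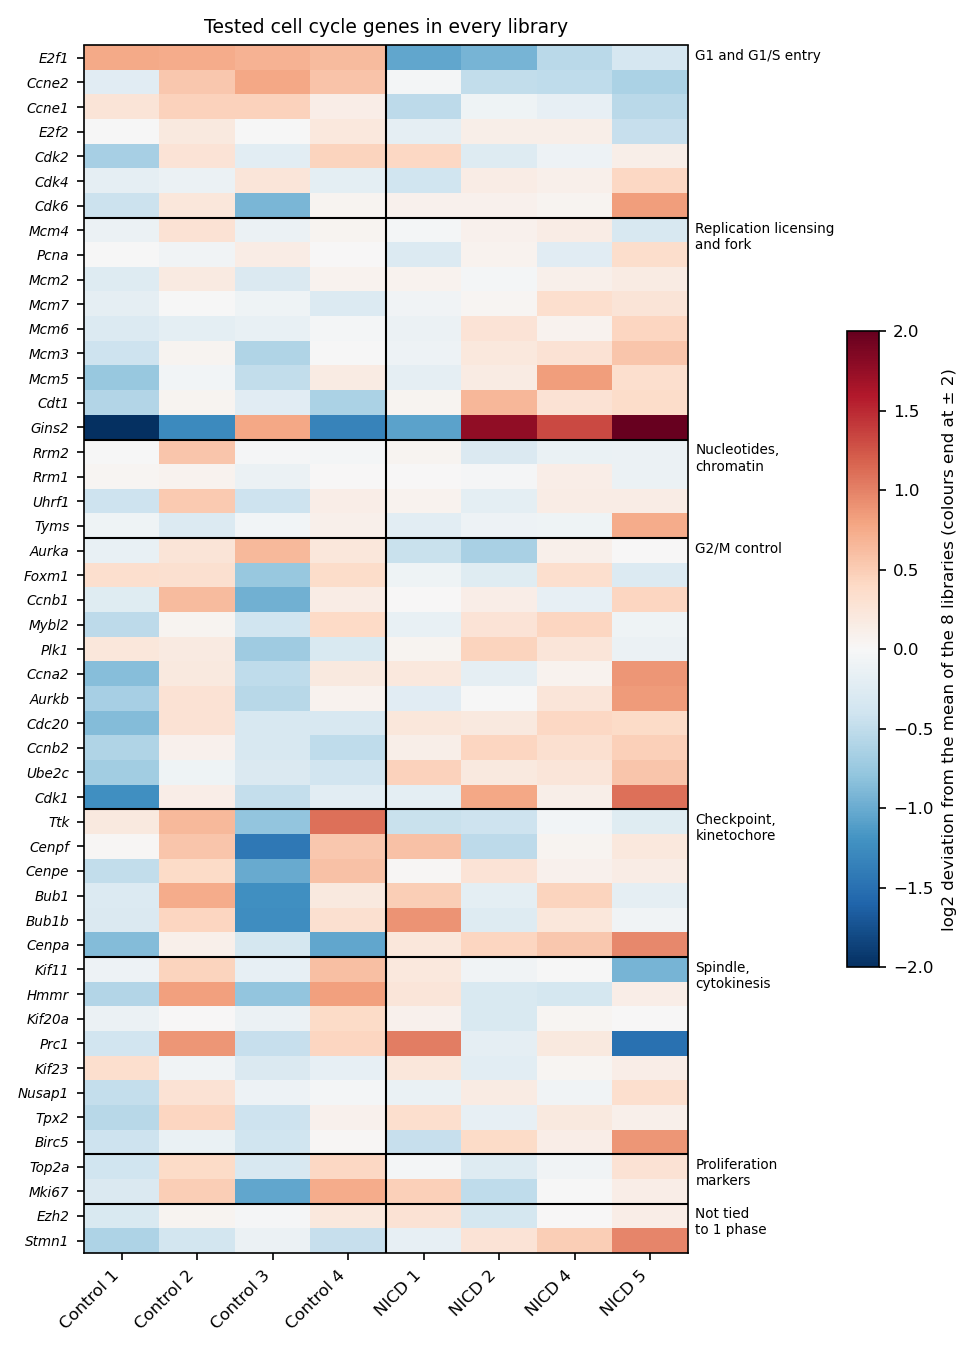
Log2 deviation of each tested member from its mean over the 8 libraries, members in rows by phase and libraries in columns, with red above and blue below the mean. Controls 1 and 3 are mostly blue for the genes of G2 and mitosis and controls 2 and 4 mostly red, while E2f1 is red in all 4 controls.

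When only the 5 libraries without Eif2s3y counts were compared, controls 1 and 3 against β-tetO-NICD libraries 1, 2 and 4, the median of the 27 mitosis members was 0.67 and 24 of them were positive, beside a median of 0.0069 and 7637 of 15082 positive over all genes. The 2 controls left in that fit are those in which these members were low, so its higher values follow from the choice of libraries and are no separate evidence. None of the 27 passed in it. Mki67 was then at 0.67 ± 0.40 (adjusted p = 0.551) and Top2a at 0.24 ± 0.26 (adjusted p = 0.734). That fit leaves out β-tetO-NICD library 5 as well as controls 2 and 4, and the sign of both differed from that in all 8 libraries. The median of the 20 tested members of G1/S and S phase was 0.22 in these libraries and 0.09 in all 8. Without β-tetO-NICD library 1, the only one of its group with higher long transcripts, 7 members passed, E2f1 and Ccne2 lower and Mcm6, Gins2, Cdk1, Cenpa and Stmn1 higher, while 33.2% of all genes tested passed in that fit.

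Of the members not tied to a phase, Stmn1, which encodes the microtubule-destabilizing protein stathmin, came nearest to the threshold after E2f1. It was at 12.5, 14.9, 17.7 and 14.0 CPM in controls and at 17.2, 23.4, 27.2 and 38.0 CPM in β-tetO-NICD libraries. Control 3 was above β-tetO-NICD library 1, and the log2 fold change was 0.84 ± 0.24 (adjusted p = 0.0605). It was 0.29 (adjusted p = 0.181) with the length offset and 0.52 (adjusted p = 0.199) with a term for the transcript-length division. Stmn1 passed in 4 of 26 alternatives, which were DESeq2 (adjusted p = 0.0135), the acinar score (0.0395), the replicate block (0.0481) and the fit without β-tetO-NICD library 1 (0.00826). Ezh2, the methyltransferase of the Polycomb complex PRC2, was at 5.90, 7.56, 7.16 and 8.44 CPM in controls and at 8.93, 5.68, 7.34 and 8.01 CPM in β-tetO-NICD libraries (0.04 ± 0.20, adjusted p = 0.895). Neurons also express Stmn1 outside the cell cycle. The summed levels of endocrine cell markers stand beside these values and were not themselves tested. That of 6 α cell genes was between 15603 and 46539 CPM in controls and between 58710 and 74081 CPM in β-tetO-NICD islets, with 2 of 6 genes past the threshold and higher. Those of 9 β cell genes (155258 to 196168 CPM against 72005 to 171842 CPM, 2 of 9 lower) and of 4 δ cell genes (2439 to 6588 CPM against 5087 to 14146 CPM, 1 of 4 higher) overlapped between the groups. As mean log2 CPM, a score that weighs each gene alike, the β list did not overlap (10.1 to 10.4 in controls against 9.47 to 9.53), nor did the α list (7.87 to 8.73 against 8.81 to 9.32), whereas the δ list did (5.87 to 6.96 against 6.93 to 7.41). No marker of these lists was at 0 in all libraries, and their part in the Stmn1 values was not tested.

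A wider list of 128 cell cycle genes outside the members was also read, of which 125 were in the table and 122 were tested. Of these, 4 passed (3.28%, below the share of all genes), 2 higher and 2 lower, and the median log2 fold change of the list was 0.04. Gmnn and Racgap1 passed without each of the 8 libraries in turn, and Spc25 and E2f3 in 2 of the 8 such fits. With the leukocyte score, where few genes of the whole table passed, Racgap1 did (-3.41, adjusted p = 0.0223). Gmnn (5.41, adjusted p = 0.169), Spc25 (-0.49, adjusted p = 0.799) and E2f3 (0.074, adjusted p = 0.968) did not pass with it. Over 26 alternatives in all, Spc25 lost the threshold in 9.

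Gmnn encodes geminin, the protein that binds CDT1 and blocks a repeat of licensing. It was at 4.47, 4.39, 6.37 and 2.35 CPM in controls and at 35.6, 92.3, 59.5 and 89.1 CPM in β-tetO-NICD libraries (chr13:24751845-24761923). The lowest β-tetO-NICD library was far above the highest control, and the log2 fold change was 3.97 ± 0.38, 15.7-fold higher (adjusted p = 0.000438). Its partner Cdt1, given above, was at 0.73. Racgap1, a subunit of centralspindlin, which positions the cleavage furrow, was at 29.3, 31.5, 35.3 and 52.5 CPM in controls and at 8.17, 7.12, 8.47 and 6.90 CPM in β-tetO-NICD libraries (chr15:99620496-99651656). It fell 4.84-fold, with a log2 fold change of -2.28 ± 0.21 (adjusted p = 0.000318). Kif23, the member that encodes the motor of the same complex, was between 1.07 and 1.71 CPM in all libraries and at 0.08 ± 0.27 (adjusted p = 0.847).

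Spc25, a subunit of the NDC80 complex of the kinetochore, was at 52.7, 43.9, 54.6 and 44.4 CPM in controls and at 16.6, 31.7, 11.7 and 21.5 CPM in β-tetO-NICD libraries, below every control (-1.26 ± 0.27, adjusted p = 0.0255). The genes of the other subunits, Ndc80, Nuf2 and Spc24, were scarcer, with control means of 1.49, 0.673 and 2.22 CPM. Their log2 fold changes were 0.21, 0.48 and 0.52, and none passed. Spc25 lies 4878 bases from G6pc2, an islet glucose-6-phosphatase gene. G6pc2 was between 1577 and 1919 CPM in controls and between 296 and 398 CPM in β-tetO-NICD islets (-2.41 ± 0.19, adjusted p = 0.000138). E2f3, the remaining activating E2F, was at 3.83, 6.08, 5.58 and 7.18 CPM in controls and at 12.5, 10.3, 11.4 and 8.11 CPM in β-tetO-NICD libraries (0.90 ± 0.23, adjusted p = 0.0470). The E2F genes linked to repression, E2f4 to E2f7, were at -0.11, 0.08, -0.31 and -0.48 and did not pass. E2f8, which is linked to repression too, had between 3 and 19 counts per library and was not tested.

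**Figure D5:**
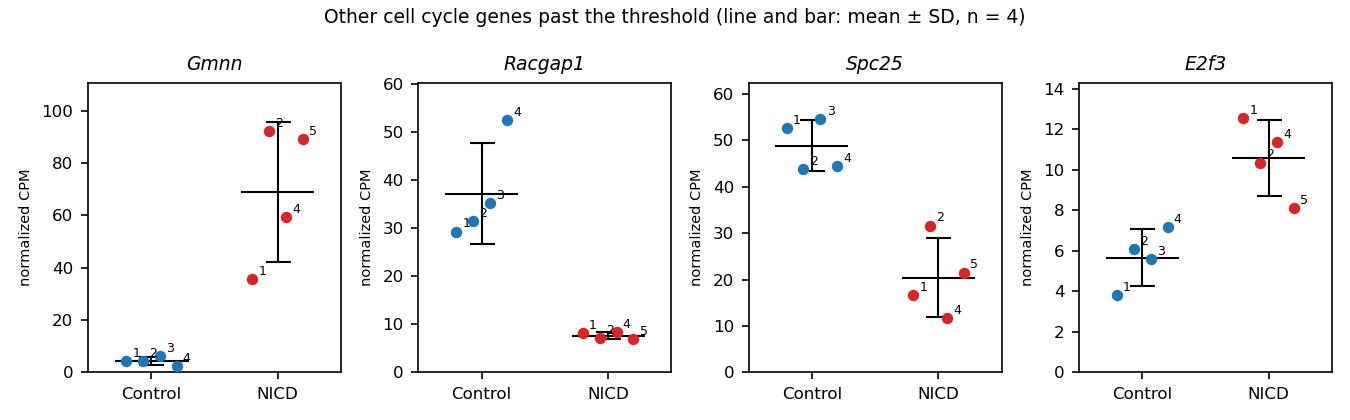
Normalized CPM of the 4 cell cycle genes outside the members that passed the threshold, in each library, with the mean ± SD (n = 4). Gmnn is between 2.35 and 6.37 CPM in controls and between 35.6 and 92.3 CPM in β-tetO-NICD islets. Racgap1 separates in the opposite direction, 29.3 to 52.5 CPM against 6.90 to 8.47 CPM.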

How the data were processed

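RNA-Seq was from whole islets, 1 library per mouse, made with a stranded mRNA kit. The authors deposited whole-number counts per gene symbol, not normalized, from Kallisto pseudoalignment to the GRCm38 transcriptome. The submitters' processing notes also name bcl2fastq, limma and mm10. The Kallisto version, its strand setting and the annotation are not given in the sources used here. Reads of genes whose transcripts overlap on opposite strands may therefore be split wrongly. Overlaps are given between whole gene spans, and overlap of exons was not determined. Such spans overlap another protein-coding gene for 13 members, for 11 of them on the opposite strand. A deposited table of the authors' own comparison (fold changes and p values) was not used. Columns were mapped by name, and β-tetO-NICD columns 4 and 5 were assigned to their group but to no mouse. No pair of libraries of the same group agreed within sampling noise, and pairs across the groups were not compared.

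The tool was edgeR 4.0.16 under R 4.3.3. Genes had to reach 10 counts in 4 or more of 8 libraries. The fit used TMM scaling, the quasi-likelihood F test of 4 against 4 libraries without covariate and Benjamini-Hochberg adjustment over all genes, with a threshold of 0.05. Adjusted p values are from this test unless another is named, and ± after a log2 fold change is its SE. The authors' own method was limma, run here as limma-voom (limma 3.58.1), with DESeq2 1.42.0, as an alternative. Other alternatives were normalizations, filters, covariates, offsets for transcript length, fits within libraries of like transcript-length trend, a replicate block and leaving out each library. The fit without libraries that hold Eif2s3y counts was chosen after seeing the data. Replicate numbers pair controls with β-tetO-NICD columns for numbers 1 and 2 only. Fits were also run on simulated counts that had neither the transcript-length nor the Eif2s3y division. Those runs cannot show how the fits behave under these divisions. Coordinates and lengths are from GENCODE M21, promoter windows from RefSeq.

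The members and all gene lists were chosen with earlier results of these data known. Values in every library are given for members past the threshold, for Mki67, Top2a, Pcna, Ccnb1 and Cdk1, for the 2 members of each phase group with the smallest p, and for the other cell cycle genes past the threshold. At these depths 3 counts correspond to between 0.0996 and 0.151 CPM.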

Additional observations from a re-analysis of the deposited data

Results flagged for a closer look

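In groups of 4 libraries, 5 of 108 had a library far from the other 3, where chance gives about 1 in 20, or 5.40. The gap of the extreme library to its neighbour, as a share of the range, is given for each. Cdk6 was highest in β-tetO-NICD library 5, at 4.23 CPM against 2.42 to 2.49 CPM (0.964). Tyms was highest in the same library, at 14.2 CPM against 7.27 to 7.94 CPM (0.903). Gins2 was highest in control 3, at 25.5 CPM against 2.72 to 6.12 CPM (0.851). Foxm1 was lowest in control 3, at 0.950 CPM against 2.11 to 2.19 CPM (0.935), with 24 counts there. Rrm2 was highest in control 2, at 3.59 CPM against 2.35 to 2.40 CPM (0.964). The causes were not tested.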

How the results depend on the processing

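For 23 named genes, 593 values from 26 alternatives were compared with those reported: 506 kept their direction and their side of the threshold, 29 lost the threshold, 13 gained it and 45 changed sign. E2f1 kept both in 24 of 26, the exceptions being the leukocyte score (adjusted p = 0.613) and the short-transcript libraries (-1.28, adjusted p = 0.209). Gmnn lost the threshold with the leukocyte score (5.41, adjusted p = 0.169) and Racgap1 within the long-transcript libraries (-2.21, adjusted p = 0.134). E2f3 lost it in 16 of 26, with adjusted p of 0.0757 with the Eif2s3y covariate, 0.0520 with the acinar score, 0.0641 with the length term, 0.0660 with the replicate block, 0.0795 with library totals only and 0.0532 with no filter among them, and it was at 0.074 (adjusted p = 0.968) with the leukocyte score. Spc25 lost it in 9 of 26, 6 of them with a library left out, and was at -0.49 (adjusted p = 0.799) with the leukocyte score. Genes called in the whole table were 2739 with DESeq2, 1554 with a length offset, 608 with a length term, 5 with the leukocyte score, 122 in the libraries without Eif2s3y counts, 90 and 61 within the long- and short-transcript libraries, and 319 to 4954 when a library was left out. Of the 49 members tested in all 8 libraries, 5 were called with DESeq2 (2 higher and 3 lower), beside 2739 of 15082 genes. With the length offset 3 were called (3 lower), beside 1554 genes, and with the leukocyte score 0, beside 5 genes. With an acinar score 3 were called (2 higher), and the count over all genes is not given here. When a library was left out, 1 to 7 were called (0 to 5 higher, 1 to 2 lower), beside 319 to 4954 genes. Numbers 1 and 2 had correlations of deviations of 0.276 and -0.09, so they are not shown to pair the mice. With the replicate block 2 members were called (1 higher, Stmn1 at adjusted p = 0.0481) and 970 genes in all. Other cell cycle genes called, of 122 tested in all libraries, were 9 with DESeq2, 1 with the leukocyte score and 2 without Eif2s3y counts. When a library was left out they were 2 to 23. The counts over all genes in these fits are those given above. The median of G2 and mitosis members was 0.45 with the length term, 0.79 within the short-transcript libraries and 0.67 without Eif2s3y counts, and turned to -0.12 with the leukocyte score. That of G1/S and S phase members was -0.049 within the long-transcript libraries.

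The changes of sign were as follows. Mki67 was at 0.27 with an Eif2s3y covariate, 0.57 with the length offset, 0.51 with the length term, 0.045 with limma-voom, 0.0060 with upper-quartile scaling, 0.67 without Eif2s3y counts, and 0.094 and 0.97 within the long- and short-transcript libraries. Top2a was at 0.12 with the covariate, 0.20 with the offset, 0.055 with the term, 0.0014 with upper-quartile scaling, 0.24 without Eif2s3y counts and 0.34 within the short-transcript libraries. Pcna was at 0.016 with 10 counts in every library, 0.010 with the Eif2s3y covariate, 0.00080 with the acinar score, 0.071 with the leukocyte score and 0.063 with upper-quartile scaling. Ccnb1 was at -0.035 with the offset and -0.24 within the long-transcript libraries, and Ezh2 at -0.033 with the offset, -0.64 with the leukocyte score and -0.024 within the short-transcript libraries. Rrm2 was at 0.13 and Tyms at -0.11 with the leukocyte score. Tyms was at -0.14 and Birc5 at -0.32 within the long-transcript libraries, Ttk at 0.73 within the short-transcript ones, and Kif11 at 0.19 and Tyms at -0.064 without Eif2s3y counts. With a library left out, Mki67 was between -0.32 and 0.22, Top2a between -0.19 and 0.068, Pcna between -0.15 and 0.068, Ccnb1 between -0.12 and 0.45, Ezh2 between -0.050 and 0.16 and Tyms between -0.060 and 0.31. The causes were not tested. The splits leave arms of 1 library, which are assumed to vary like the others. The SE of the log2 fold change was 0.12 to 0.76 over the tested members, and the smallest changes that could pass at their depth were not determined.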

Other observations

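The pocket proteins and MuvB subunits that hold E2F and mitosis genes silent in resting cells were on the wider cell cycle list, and none passed the threshold. Rb1 was at a log2 fold change of -0.49 ± 0.20 (adjusted p = 0.137), Rbl1 at -0.29 ± 0.19 (adjusted p = 0.294) and Rbl2 at -0.56 ± 0.28 (adjusted p = 0.196). Of the MuvB subunits, Lin54, the DNA-binding one, was at -0.72 ± 0.22 (adjusted p = 0.0717), between 10.3 and 12.4 CPM in controls and between 4.94 and 9.50 CPM in β-tetO-NICD islets. Lin37 was at 0.59 ± 0.26 (adjusted p = 0.156). Lin9 and Lin52 were at -0.08 and -0.07. The longest transcript is 4592 bases for Lin54 and 1312 bases for Lin37, and the part of the transcript-length division in these values was not tested.

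Replication factor C loads PCNA on DNA. Its small subunits Rfc2, Rfc3, Rfc4 and Rfc5 were at 0.52, 0.72, 0.65 and 0.53, and the large subunit Rfc1 was at -0.42, with adjusted p between 0.0742 and 0.154. Apart from Rfc5, the libraries of the groups overlapped. Control 3 was above β-tetO-NICD library 1 for Rfc2 (25.8 against 21.3 CPM) and Rfc3 (8.07 against 7.75 CPM). The part of the transcript-length division in these values was not tested. The genes of this complex were singled out after their values were seen.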
